A study of Arabidopsis thaliana with 30 samples.

Results

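Whole leaves of water-sprayed jazD plants taken 12 h after spraying were set against leaves of the same genotype and treatment taken at 0 h, gene by gene. The members were all genes with at least 1 TPM (a length-corrected share of each library's transcripts) in at least 3 of the 6 libraries of the 2 groups. This rule kept 17817 of the 27655 genes in the table, or 64.4%, of which 267 passed through their 12 h level alone and 80 through their 0 h level alone. The study sprayed jazD plants with coronatine, a bacterial mimic of jasmonoyl-isoleucine, or with water, and sampled 3 replicates of each treatment at 0, 1, 3, 12 and 24 h, 30 libraries in all. The 12 h group is jazD in the Col-0 ecotype, sprayed with water (mock) and harvested at 12 h, and the 0 h group is the same genotype and treatment harvested at 0 h, with 3 libraries each. All plants were 26 days old when sprayed and had grown at 20 °C with 16 h of light and 8 h of darkness a day. jazD combines mutations in many genes of the JAZ family of jasmonate repressors. No wild-type leaves were analysed here, so every level below is that of this mutant. The labels give hours after spraying and not the hour of the day, so neither group is called morning or evening here. Time of day, time after spraying and any difference in handling between the harvests cannot be told apart.

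The plant circadian clock is a set of transcription factors that repress each other in turn over the day. The MYB factors CCA1 and LHY peak around dawn and bind the evening element in promoters of evening genes, the pseudo-response regulators PRR9, PRR7, PRR5 and TOC1 follow each other through the day and repress CCA1 and LHY, and the evening complex of ELF3, ELF4 and LUX acts at dusk and at night. Among their known outputs in leaves are the light-harvesting proteins, which bind chlorophyll around the photosystems, and the enzymes that break down at night the starch made by day.

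The promoters shown here belong to genes on which the results below turn, and are the 250 bases before the annotated gene start, read from the RefSeq TAIR10.1 genome and written 5′ to 3′ on the gene's own strand. In the first 5, all of genes with higher levels at 12 h, the capitals mark the evening element AAAATATCT or its reverse complement.
GRP7: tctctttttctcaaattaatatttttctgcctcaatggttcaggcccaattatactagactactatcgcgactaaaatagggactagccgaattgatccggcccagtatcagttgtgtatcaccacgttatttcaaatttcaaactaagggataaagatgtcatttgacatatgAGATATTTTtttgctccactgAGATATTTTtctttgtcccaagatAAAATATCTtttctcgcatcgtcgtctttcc
TOC1: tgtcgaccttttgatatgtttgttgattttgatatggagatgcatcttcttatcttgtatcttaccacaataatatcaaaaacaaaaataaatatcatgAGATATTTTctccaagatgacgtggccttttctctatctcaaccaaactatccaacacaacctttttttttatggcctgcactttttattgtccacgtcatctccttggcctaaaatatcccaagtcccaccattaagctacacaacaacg
BOA: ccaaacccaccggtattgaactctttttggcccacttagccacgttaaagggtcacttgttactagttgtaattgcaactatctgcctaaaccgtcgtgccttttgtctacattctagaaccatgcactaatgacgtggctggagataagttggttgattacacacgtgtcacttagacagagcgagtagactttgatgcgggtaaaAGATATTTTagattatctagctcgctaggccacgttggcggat
ISA3: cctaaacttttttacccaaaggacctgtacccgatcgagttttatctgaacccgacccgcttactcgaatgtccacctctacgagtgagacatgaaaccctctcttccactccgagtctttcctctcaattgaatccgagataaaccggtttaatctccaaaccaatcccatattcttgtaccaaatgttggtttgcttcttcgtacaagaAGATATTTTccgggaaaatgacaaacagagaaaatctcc
PWD: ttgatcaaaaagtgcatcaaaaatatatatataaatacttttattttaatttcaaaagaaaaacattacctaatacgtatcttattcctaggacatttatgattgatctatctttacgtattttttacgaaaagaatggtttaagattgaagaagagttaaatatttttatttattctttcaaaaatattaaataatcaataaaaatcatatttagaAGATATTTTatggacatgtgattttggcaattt
In the other 3, of genes with lower levels at 12 h, the capitals mark the G-box CACGTG.
LNK3: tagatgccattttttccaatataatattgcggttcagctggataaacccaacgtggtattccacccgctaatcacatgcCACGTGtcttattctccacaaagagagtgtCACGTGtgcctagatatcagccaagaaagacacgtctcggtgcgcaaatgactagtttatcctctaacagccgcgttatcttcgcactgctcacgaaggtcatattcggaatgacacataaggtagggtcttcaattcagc
PRR9: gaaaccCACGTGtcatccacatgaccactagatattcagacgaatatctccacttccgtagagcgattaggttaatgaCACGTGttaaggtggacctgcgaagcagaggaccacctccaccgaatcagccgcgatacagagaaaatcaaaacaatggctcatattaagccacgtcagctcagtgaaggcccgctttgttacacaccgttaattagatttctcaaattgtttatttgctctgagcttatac
LHY: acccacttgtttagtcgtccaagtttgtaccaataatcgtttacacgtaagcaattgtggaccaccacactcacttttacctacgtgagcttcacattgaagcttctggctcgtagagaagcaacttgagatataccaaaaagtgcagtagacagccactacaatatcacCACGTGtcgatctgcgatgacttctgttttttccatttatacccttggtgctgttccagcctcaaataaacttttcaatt
The stretches lie at chr2:9266558-9266807 for GRP7, chr5:24674713-24674962 for TOC1, chr5:24003638-24003887 for BOA, chr4:5783659-5783908 for ISA3, chr5:9261229-9261478 for PWD, chr3:3923265-3923514 for LNK3, chr2:19232357-19232606 for PRR9 and chr1:37872-38121 for LHY. GRP7 and LHY are on the reverse strand and the others on the forward strand. Each stretch ends at the base before the annotated start of its gene, so it is upstream sequence with no exon of that gene. The evening elements of GRP7 begin 76, 55 and 31 bases before the start, and those of ISA3, PWD, BOA and TOC1 39, 33, 43 and 151 bases before it.

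Genes of the clock, of light harvesting and of starch breakdown were among those with higher or lower levels at 12 h, within a broad change of the leaf transcriptome. On both scalings used (TPM as deposited, and TPM rescaled with TMM factors, which equalise the bulk of genes), 3895 genes rose at 12 h (21.9%) and 1884 fell (10.6%), or 32.4% of those tested, by limma on log2(TPM + 1) with Benjamini-Hochberg adjustment over all 17817 genes. Of these, 773 rose by at least 1 on the log2 scale (4.34%) and 441 fell by at least as much (2.48%). Every count of list members below is to be read beside the shares over all genes, 21.9% that rose and 10.6% that fell. The median gene was higher at 12 h by 0.24 on the log2 scale of deposited TPM and by 0.00 after rescaling, so deposited TPM alone called 9536 genes higher and 1884 lower, and rescaled TPM alone called 3895 higher and 3984 lower. In the text, rose and fell refer only to genes called the same way on both, and log2 differences are on the scale of log2(TPM + 1), 12 h minus 0 h, with their standard error; a gene said to rise or fall by a value did so by that log2 difference. Levels in TPM written with ± are the mean and SD of the 3 libraries of a group. The values of the 2 groups did not overlap for 12680 genes (71.2%). Spearman correlations between libraries of one group were 0.993 to 0.995 at 12 h and 0.990 to 0.994 at 0 h, and that between the 2 group means was 0.951. TPM keeps no sequencing depth, so the precision of low values is unknown, and in whole leaves fewer cells of a type and less RNA per cell cannot be told apart. The p-values measure the spread between libraries of one group, pooled over all 30 libraries of the series and not over these 6 alone. Nothing in the labels says that replicates were separate plants, so this spread may be technical.

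Markers of other organs were near 0: the summed level of 5 flower genes was 0.34 to 0.53 TPM at 12 h and 0.30 to 0.52 TPM at 0 h, and that of 3 root hair genes 0.00 to 0.03 TPM at 12 h and 0.00 to 0.07 TPM at 0 h. The 4 mesophyll markers summed to 24746 to 25972 TPM at 12 h and 35202 to 36836 TPM at 0 h, where LHCB3 and RCA fell and RBCS1A and CA1 did not pass on both scalings. The 5 phloem markers summed to 282 to 296 TPM at 12 h and 233 to 268 TPM at 0 h, and none was called. The 4 guard cell markers, of which 1 rose and 2 fell, summed to 155 to 185 TPM at 12 h and 204 to 234 TPM at 0 h. The 4 epidermis markers summed to 309 to 346 TPM at 12 h and 339 to 347 TPM at 0 h, with 1 that fell. The 5 tested of 6 xylem markers summed, with the sixth, to 36.7 to 42.2 TPM at 12 h and 43.5 to 46.2 TPM at 0 h, with 2 that fell. The 3 trichome markers summed to 12.7 to 14.9 TPM at 12 h and 8.25 to 9.21 TPM at 0 h, with 1 that rose, and the 2 myrosin cell markers to 8315 to 9261 TPM at 12 h and 6532 to 7303 TPM at 0 h, with none called. Without mock 12 h replicate 2 or 3 or mock 0 h replicate 2 or 3 none of the epidermis markers fell, and without mock 12 h replicate 2 or 3 or any of the mock 0 h replicates 1 xylem marker fell. Without mock 12 h replicate 2 the guard cell markers that rose were 2, and without mock 0 h replicate 1 those that fell were 1. The part of cell makeup in the results below was not tested.

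Most genes of the clock's morning limb were lower at 12 h. Of the 16 MYB factors and morning partners, all tested, 13 fell and 1 rose, with a median log2 difference of -3.46 against 0.24 over all genes tested. CCA1 had 1.19, 1.59 and 1.3 TPM at 12 h, against 144, 147 and 139.9 TPM at 0 h. Its close relative LHY had 4.64, 3.66 and 3.84 TPM at 12 h, against 109, 112 and 101 TPM at 0 h. The groups lay far apart for both, with log2 differences of -5.94 ± 0.08 for CCA1 (adjusted p = 3.32e-26) and -4.43 ± 0.09 for LHY (adjusted p = 1.61e-22). RVE8, a MYB factor of the same family that activates evening genes, fell to 10.4, 10.9 and 9.50 TPM at 12 h, against 59.7, 63.5 and 57.5 TPM at 0 h. RVE4, another activator of this kind, had 39.2, 41.1 and 39.4 TPM at 12 h, against 79.7, 83.2 and 80.0 TPM at 0 h, a fall of smaller size (-1.0 ± 0.05, adjusted p = 1.19e-14). RVE1, which links the clock to auxin production, and RVE3 and RVE7 fell as well, by 2.79, 1.97 and 2.57 on the log2 scale. RVE5 and RVE6 overlapped between the groups and did not pass on both scalings, with 11.39 ± 0.84 TPM at 12 h and 11.7 ± 1.05 TPM at 0 h for RVE5 and 9.49 ± 0.47 TPM at 12 h and 10.3 ± 0.69 TPM at 0 h for RVE6.

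The LNK proteins, coactivators that work with RVE factors, all fell. LNK2, the most abundant of them, had 5.82, 6.92 and 7.12 TPM at 12 h, against 332, 351 and 324 TPM at 0 h (log2 difference -5.47 ± 0.06, adjusted p = 5.12e-28). LNK3 had 1.05, 0.63 and 0.81 TPM at 12 h, against 139, 139 and 133 TPM at 0 h. LNK4 had 0.42, 0.61 and 0.35 TPM at 12 h, against 104, 99.5 and 97.2 TPM at 0 h. LNK1 stood at 1.29, 1.32 and 1.31 TPM at 12 h, against 64.6, 66.7 and 64.3 TPM at 0 h. In all 4 genes the highest 12 h library was far below the lowest 0 h library, and LNK3, whose promoter with a pair of G-boxes is printed above, had the largest fall on the log2 scale among the 16 genes (log2 difference -6.24 ± 0.09, adjusted p = 1.18e-25). The early pseudo-response regulators fell too. PRR9 had 0.16, 0.12 and 0.20 TPM at 12 h, against 19.6, 18.8 and 19.8 TPM at 0 h. PRR7 had 1.62, 1.57 and 1.32 TPM at 12 h, against 42.5, 46.0 and 43.1 TPM at 0 h, with log2 differences of -4.14 ± 0.08 and -4.17 ± 0.05 (adjusted p = 2.89e-23 and 5.12e-28). RVE2, also called CIRCADIAN 1, was the 1 member that rose: it had 77.4, 75.6 and 75.5 TPM at 12 h, against 2.76, 2.85 and 2.03 TPM at 0 h (log2 difference 4.45 ± 0.13, adjusted p = 9.83e-20).

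The evening limb ran the other way for most of its genes. Of its 14 members, all tested, 10 rose and 2 fell, with a median log2 difference of 2.82 against 0.24 over all genes tested. The largest rise in the leaf among genes with at least 10 TPM and a symbol was that of JMJD5, a jumonji-domain demethylase tied to the clock, with 66.6, 64.5 and 63.3 TPM at 12 h, against 0.49, 0.33 and 0.32 TPM at 0 h (log2 difference 5.58 ± 0.08, adjusted p = 7.02e-26). ELF4, a small protein of the evening complex, had 46.7, 48.9 and 47.0 TPM at 12 h, against 0.11, 0.68 and 0.34 TPM at 0 h (log2 difference 5.16 ± 0.14, adjusted p = 2.23e-20). Its partner ELF3 had 31.9, 30.5 and 32.7 TPM at 12 h, against 3.53, 3.95 and 3.48 TPM at 0 h. The DNA-binding members were unequal: LUX had 19.4, 19.3 and 18.5 TPM at 12 h, against 10.3, 8.67 and 8.93 TPM at 0 h. Its paralog BOA had 11.1, 10.2 and 10.2 TPM at 12 h, against 0.09, 0.29 and 0.16 TPM at 0 h. Log2 differences were 2.81 ± 0.08 for ELF3, 0.96 ± 0.09 for LUX and 3.29 ± 0.15 for BOA, each past the threshold.

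Among the later pseudo-response regulators, TOC1 had 40.6, 37.4 and 41.0 TPM at 12 h, against 3.41, 4.67 and 4.39 TPM at 0 h (log2 difference 2.99 ± 0.11, adjusted p = 3.37e-17). PRR5 had 8.34, 8.86 and 8.78 TPM at 12 h, against 0.28, 0.49 and 0.31 TPM at 0 h. PRR3 had 12.7, 11.36 and 10.8 TPM at 12 h, against 0.21, 0.05 and 0.15 TPM at 0 h. All 3 were well apart between the groups, and PRR3 and PRR5 were under 1 TPM in every 0 h library. The glycine-rich RNA-binding proteins GRP7 and GRP8, which form a slave oscillator, rose unequally. GRP7 had 503, 489 and 495 TPM at 12 h, against 16.7, 17.7 and 16.1 TPM at 0 h (log2 difference 4.80 ± 0.10, adjusted p = 2.38e-22). GRP8 had 148, 138 and 153 TPM at 12 h, against 82.1, 91.8 and 88.4 TPM at 0 h (log2 difference 0.74 ± 0.07, adjusted p = 7.49e-09). The 2 members that fell were GIGANTEA (GI), a large protein that steadies the F-box protein ZTL, and TCP21, a repressor of CCA1. GI had 1.87, 1.68 and 1.83 TPM at 12 h, against 5.04, 5.59 and 6.16 TPM at 0 h. TCP21 had 24.7, 25.5 and 20.6 TPM at 12 h, against 38.3, 42.3 and 35.8 TPM at 0 h. ZTL itself, which marks TOC1 and PRR5 for degradation, overlapped between the groups with 25.8 ± 1.33 TPM at 12 h and 26.3 ± 0.85 TPM at 0 h. LKP2 of the same family had 10.1 ± 0.52 TPM at 12 h and 8.46 ± 0.24 TPM at 0 h, and neither passed on both scalings.

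**Figure D1:**
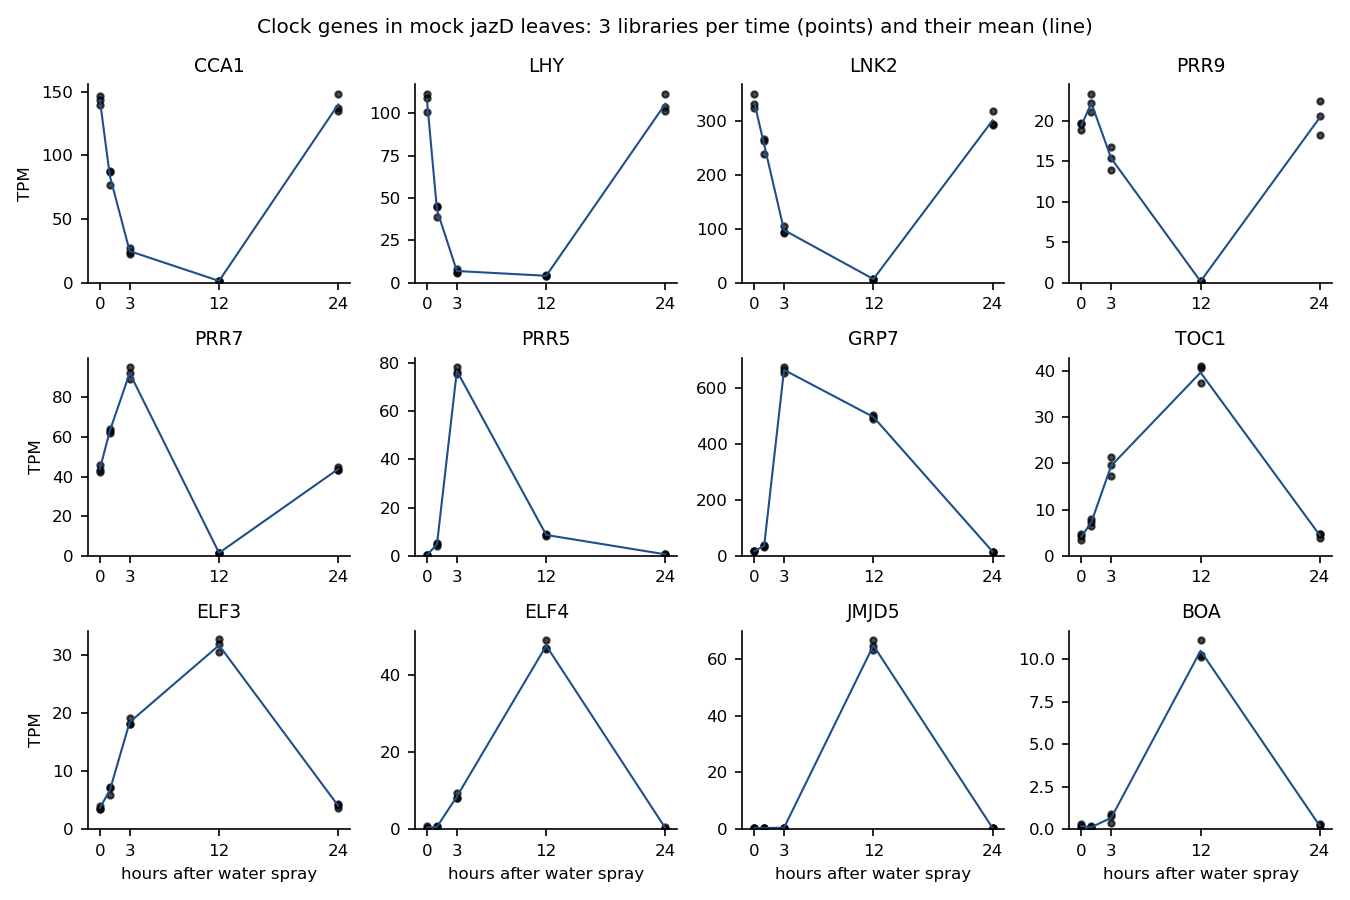
Level in TPM (vertical axes, each from 0) of 12 clock genes against hours after the water spray, with 3 mock libraries per time as points and their mean as a line. CCA1, LHY, LNK2, PRR9 and PRR7 were low at 12 h, TOC1, ELF3, ELF4, JMJD5 and BOA were highest there, PRR5 and GRP7 were higher at 3 h than at 12 h, and the 24 h points lie close to those at 0 h.

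The 1 h and 3 h libraries show where along the sampled day each gene turned, given here as means of 3 libraries at 0, 1, 3, 12 and 24 h with no test. CCA1 had 143, 83.9, 24.7, 1.36 and 140.0 TPM and LHY 107, 42.9, 6.87, 4.05 and 106 TPM, so both were already low at 3 h. PRR9 had 19.4, 22.2, 15.4, 0.16 and 20.4 TPM, PRR7 43.9, 63.0, 92.2, 1.503 and 43.8 TPM and PRR5 0.36, 4.79, 76.6, 8.66 and 0.63 TPM, so the highest sampled mean was at 1 h for PRR9 and at 3 h for PRR7 and PRR5. TOC1 had 4.16, 7.27, 19.5, 39.7 and 4.46 TPM and ELF4 0.38, 0.61, 8.42, 47.5 and 0.25 TPM, with the highest mean at 12 h. GI had 5.60, 12.7, 46.1, 1.79 and 6.48 TPM, which puts its fall at 12 h on the far side of a high level at 3 h. GRP7 had 16.8, 35.8, 664, 496 and 15.2 TPM, so it too was higher at 3 h than at 12 h. A comparison of 12 h with 0 h alone therefore does not give the order in which these genes peaked. In the coronatine-sprayed leaves harvested at 0 h, a separate set of 3 libraries, CCA1 had 141, 149.8 and 142 TPM and JMJD5 0.39, 0.32 and 0.40 TPM, close to the mock leaves at 0 h.

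Genes that tie the clock to flowering changed in both directions. Of the 12 photoperiod genes, 11 were tested, 3 rose and 7 fell. FKF1, the blue-light F-box protein that removes CDF repressors, had 9.02, 9.11 and 9.71 TPM at 12 h, against 0.60, 0.65 and 0.77 TPM at 0 h. CONSTANS (CO), the activator of the florigen gene, had 2.09, 2.09 and 2.41 TPM at 12 h, against 0.10, 0.20 and 0.17 TPM at 0 h. The florigen gene FT had 10.3, 9.04 and 8.06 TPM at 12 h, against 0.78, 0.63 and 0.76 TPM at 0 h. FT was above 8 TPM in every 12 h library and under 1 TPM in every 0 h library (log2 difference 2.55 ± 0.19, adjusted p = 2.14e-11). The CDF genes, whose products repress CO and FT, all fell. CDF3 had 4.87, 4.62 and 4.07 TPM at 12 h, against 75.3, 72.5 and 68.0 TPM at 0 h (log2 difference -3.73 ± 0.09, adjusted p = 1.31e-21). CDF1, CDF2 and CDF5 fell by 2.50, 1.56 and 2.1. COL2, a CONSTANS-like gene, fell to 2.61, 2.36 and 2.53 TPM at 12 h, against 62.9, 63.2 and 58.1 TPM at 0 h, although its 250 bases hold an evening element. COL1 fell by 1.42. SOC1, a flowering integrator, fell by 0.28. FLC did not pass with 3.09 ± 0.54 TPM at 12 h and 2.19 ± 0.41 TPM at 0 h. TSF, the paralog of FT, was not tested, with means of 1.08 TPM at 12 h and 0.28 TPM at 0 h.

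In a list of 15 genes of B-box zinc finger proteins, cofactors of light signalling, 10 fell and 2 rose. BBX28 had 0.36, 0.49 and 0.22 TPM at 12 h, against 52.8, 57.4 and 51.5 TPM at 0 h (log2 difference -5.34 ± 0.06, adjusted p = 5.12e-28). BBX24, the most abundant of those that fell, had 35.9, 37.5 and 36.0 TPM at 12 h, against 356, 367 and 356 TPM at 0 h. BBX16, BBX30 and BBX25 fell by 4.31, 3.48 and 3.45. Of those that rose, BBX14 had 100.2 ± 5.39 TPM at 12 h and 62.3 ± 2.27 TPM at 0 h and BBX20 2.90 ± 0.35 TPM at 12 h and 0.50 ± 0.20 TPM at 0 h. COL9, a related repressor of flowering, had 46.4, 48.5 and 48.3 TPM at 12 h, against 0.56, 0.75 and 0.66 TPM at 0 h. BBX8 had 27.2, 27.4 and 26.4 TPM at 12 h, against 1.99, 1.79 and 1.67 TPM at 0 h; both are among the 12 largest rises. COL5 is among the 12 largest falls, with 4.6, 4.52 and 4.59 TPM at 12 h, against 117, 126 and 124 TPM at 0 h. Of 25 tested loci annotated as B-box or CONSTANS-like proteins, 14 fell and 8 rose, beside 10.6% and 21.9% of all genes. That wider group was chosen after the values were seen and shares members with the list. BBX21 and BBX22 overlapped between the groups and BBX15 did not, and none of the 3 passed on both scalings (189 ± 9.02 TPM at 12 h and 174 ± 1.80 TPM at 0 h for BBX15, the most abundant).

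Photoreceptors and their signalling partners fell in 10 of 19 cases. CRY1, a blue-light receptor, had 51.3 ± 1.60 TPM at 12 h and 86.4 ± 1.78 TPM at 0 h, and the early light-induced proteins ELIP1 and ELIP2, which bind chlorophyll under light stress, had 7.59 ± 2.14 TPM at 12 h and 30.8 ± 2.53 TPM at 0 h and 1.11 ± 0.38 TPM at 12 h and 12.7 ± 1.27 TPM at 0 h. CRY2 had 64.9 ± 3.37 TPM at 12 h and 48.8 ± 2.51 TPM at 0 h and did not pass on both scalings. The 1 that rose was HY5, a bZIP factor of light-grown development, with 14.4 ± 1.32 TPM at 12 h and 9.97 ± 0.68 TPM at 0 h. Its adjusted p was 3.23e-05 on deposited TPM and 0.0339 on rescaled TPM. The larger of the 2 was 0.153 without mock 12 h replicate 1. It was 0.0607 without mock 12 h replicate 3 and 0.137 without mock 0 h replicate 3.

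Growth regulators downstream of the clock fell together. Of the 16 genes in the list of PIF factors and related growth regulators, 13 were tested, 10 fell and none rose on both scalings. PIF4, a bHLH factor that drives elongation in warmth and shade, had 4.64, 4.51 and 4.33 TPM at 12 h, against 101, 97.0 and 92.0 TPM at 0 h (log2 difference -4.15 ± 0.06, adjusted p = 2.25e-26). PIF5 had 7.73, 8.53 and 8.79 TPM at 12 h, against 129.5, 137 and 127 TPM at 0 h (log2 difference -3.82 ± 0.12, adjusted p = 3.91e-19). PRE1 and PRE6, small growth-promoting HLH proteins, fell by 2.69 and 1.82, and ATHB2, a homeodomain gene of the shade response, overlapped with 6.63 ± 1.01 TPM at 12 h and 6.82 ± 0.34 TPM at 0 h. Auxin genes moved the same way: 18 of 22 were tested, 15 fell and 1 rose, with a median of -0.93. SAUR16 had 16.5 ± 1.93 TPM at 12 h and 75.2 ± 1.52 TPM at 0 h, and IAA17, a repressor of auxin response, 8.28 ± 0.69 TPM at 12 h and 39.7 ± 4.19 TPM at 0 h. SAUR15 had 2.02 ± 0.69 TPM at 12 h and 13.1 ± 1.08 TPM at 0 h and IAA14 3.79 ± 0.51 TPM at 12 h and 15.4 ± 0.74 TPM at 0 h. The 1 that rose was DAO1, an auxin oxidase, with 12.9 ± 1.505 TPM at 12 h and 7.95 ± 0.84 TPM at 0 h. Its call was lost without mock 12 h replicate 2 (adjusted p = 0.0545) and without mock 0 h replicate 2 (adjusted p = 0.0615).

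Expansins and xyloglucan transferases, which loosen cell walls, were mixed: 14 of 19 were tested, 6 fell and 2 rose. Over all genes tested 10.6% fell and 21.9% rose. EXPA8 had 8.61 ± 2.23 TPM at 12 h and 57.6 ± 9.20 TPM at 0 h and EXPA1 80.3 ± 1.63 TPM at 12 h and 185 ± 7.82 TPM at 0 h, and both fell. EXPA10 rose with 79.6 ± 1.58 TPM at 12 h and 37.7 ± 3.57 TPM at 0 h. Of 7 tested gibberellin genes, 2 rose and 2 fell. The receptor gene GID1A had 28.9 ± 1.04 TPM at 12 h and 11.1 ± 0.57 TPM at 0 h, and GA20OX1, an enzyme of gibberellin synthesis, had 1.14 ± 0.20 TPM at 12 h and 6.28 ± 0.61 TPM at 0 h. Of 9 tested brassinosteroid genes, 2 rose and 3 fell. DWF4, the rate-limiting enzyme of brassinosteroid synthesis, had 4.32 ± 0.19 TPM at 12 h and 2.07 ± 0.40 TPM at 0 h, and BAS1, which inactivates the hormone, had 1.01 ± 0.17 TPM at 12 h and 4.79 ± 0.58 TPM at 0 h.

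Light-harvesting genes took up a much smaller share of the library at 12 h. Of 21 genes, all tested, 19 fell and 1 rose, with a median log2 difference of -2.41 against 0.24 over all genes tested. Summed over the 21 genes, they made up 2.77%, 2.92% and 2.61% of the library at 12 h, against 11.9%, 11.7% and 11.6% at 0 h. LHCB2.2, an antenna protein of photosystem II, had 117, 120.1 and 100.4 TPM at 12 h, against 5541, 5444 and 5258 TPM at 0 h (log2 difference -5.58 ± 0.14, adjusted p = 3.21e-21). Its paralogs LHCB2.1 and LHCB2.4 fell by 5.41 and 5.69. The 5 LHCB1 genes are near-identical, so the split of reads between them is uncertain. Their sum was 15266 ± 913 TPM (SD, n = 3) at 12 h and 58141 ± 694 TPM (SD, n = 3) at 0 h. Within that sum LHCB1.1 was listed at 120.3, 133 and 104 TPM at 12 h, against 10104, 9784 and 9886 TPM at 0 h, and LHCB1.3 at 13838, 14353 and 12911 TPM at 12 h, against 25820.5, 24975 and 25295 TPM at 0 h. Most photosystem I antenna genes also fell, by unequal amounts. LHCA4 had 559.6, 578 and 491 TPM at 12 h, against 6656, 6688 and 6713 TPM at 0 h (log2 difference -3.62 ± 0.11). LHCA2 had 2343, 2583 and 2381 TPM at 12 h, against 3509.6, 3691 and 3694 TPM at 0 h (log2 difference -0.58 ± 0.11).

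Among the minor antenna proteins LHCB4.2 fell by 2.41, LHCB6 by 2.01 and LHCB5 by 1.70, while LHCB4.1 fell by 0.62; after quantile normalization LHCB4.1 and LHCA2 turned to 0.02 and 0.01 and were not called. LHCB4.3 was the 1 that rose, with 133, 129.8 and 127 TPM at 12 h, against 58.5, 62.9 and 55.1 TPM at 0 h (log2 difference 1.13 ± 0.10, adjusted p = 7.74e-10). LHCA5 did not pass on both scalings with 216 ± 6.39 TPM at 12 h and 229.7 ± 7.93 TPM at 0 h. Over 0, 1, 3, 12 and 24 h the mean share of the 21 genes was 11.7%, 12.6%, 13.7%, 2.77% and 12.4%. The Rubisco small subunits, whose 4 related genes are summed here, did not follow as a sum. They made up 4.37%, 4.47% and 4.3% of the library at 12 h, against 4.45%, 4.36% and 4.15% at 0 h. Over the 5 times their mean share was 4.32%, 3.85%, 3.08%, 4.38% and 4.35%. Taken singly, RBCS1B rose (log2 difference 0.68 ± 0.16) and RBCS3B fell (-0.34 ± 0.11). RBCS1A and RBCS2B did not pass on both scalings.

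**Figure D2:**
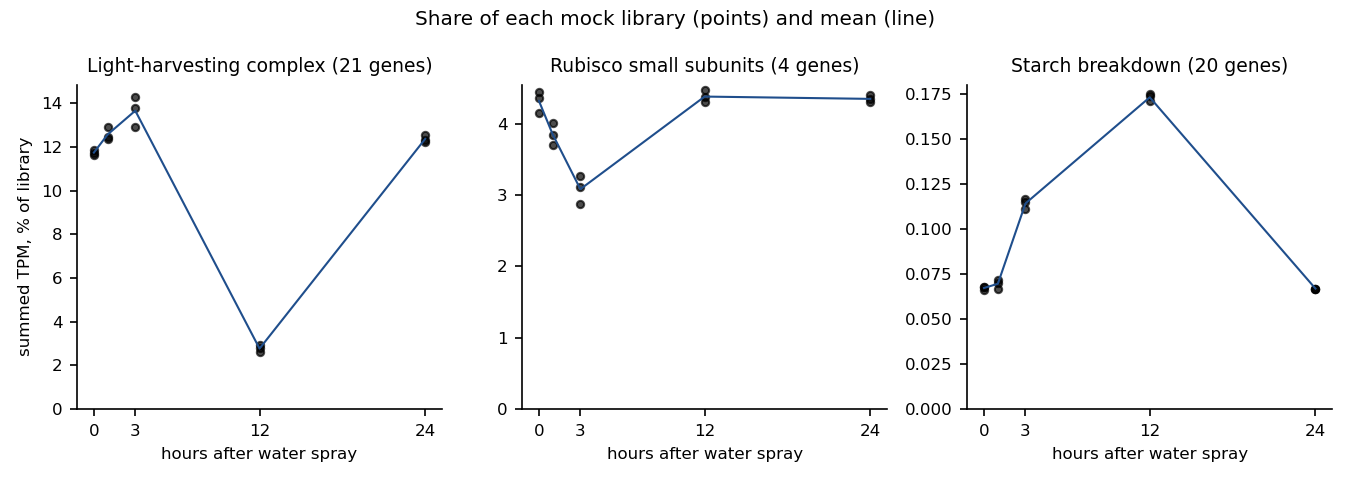
Summed TPM as a percentage of each mock library (vertical axes, each from 0) against hours after the water spray, for 21 light-harvesting genes, 4 Rubisco small subunit genes and 20 starch breakdown genes; points are libraries and lines are means. The light-harvesting share was 2.77% at 12 h and 11.7% at 0 h, and the starch breakdown share was highest at 12 h.

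Chlorophyll synthesis genes fell more often than they rose. Of 28 genes, all tested, 14 fell and 3 rose. CHLH, a subunit of the magnesium chelatase at the branch to chlorophyll, had 199 ± 2.74 TPM at 12 h and 863 ± 41.5 TPM at 0 h. HEMA1, the first committed enzyme of the tetrapyrrole pathway, had 115 ± 1.84 TPM at 12 h and 481 ± 16.2 TPM at 0 h. CAO, which makes chlorophyll b, had 52.9 ± 0.99 TPM at 12 h and 327 ± 6.62 TPM at 0 h, and CRD1, of the cyclase step, 904 ± 14.4 TPM at 12 h and 2723 ± 76.7 TPM at 0 h. All 4 fell, and of those that rose PORB, a light-dependent protochlorophyllide reductase, was the largest with 459 ± 16.4 TPM at 12 h and 211 ± 5.89 TPM at 0 h. Its course was 211, 467, 1309.8, 459 and 246 TPM, so it was higher still at 3 h. Calvin cycle genes were mixed: of 23 tested, 5 rose and 6 fell, beside 21.9% and 10.6% of all genes. RCA, which reactivates Rubisco, had 3692 ± 64.0 TPM at 12 h and 7113 ± 201 TPM at 0 h and FBA1, an aldolase, 996 ± 30.9 TPM at 12 h and 1923 ± 52.3 TPM at 0 h, and both fell. CP12-2, a linker of 2 cycle enzymes, rose with 1001 ± 34.8 TPM at 12 h and 500.3 ± 10.7 TPM at 0 h. RBCS1A, a Rubisco small subunit, had 18959.6 ± 429 TPM at 12 h and 19861 ± 524 TPM at 0 h and did not pass on both scalings. Of 14 photorespiration genes 1 rose and 3 fell. Examples are GLDH1 with 731 ± 27.5 TPM at 12 h and 437 ± 21.1 TPM at 0 h and GLDP2 with 194 ± 3.07 TPM at 12 h and 291 ± 19.7 TPM at 0 h, both parts of glycine decarboxylase.

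The enzymes of starch breakdown rose as a group. Of 20 genes, all tested, 15 rose and 3 fell, with a median log2 difference of 1.01 against 0.24 over all genes tested. The dikinases that open the granule by phosphorylation came first in the pathway. GWD1 had 67.1, 67.1 and 65.8 TPM at 12 h, against 17.44, 19.6 and 17.37 TPM at 0 h. PWD had 81.9, 78.3 and 81.0 TPM at 12 h, against 8.88, 7.95 and 7.63 TPM at 0 h. For PWD every 12 h library was above 78 TPM and every 0 h library below 9 TPM (log2 difference 3.15 ± 0.09, adjusted p = 4.13e-20). SEX4, the phosphatase that removes those phosphates, had 80.7, 80.0 and 74.1 TPM at 12 h, against 14.7, 14.9 and 14.4 TPM at 0 h. LSF2, a related phosphatase, had 26.1 ± 2.74 TPM at 12 h and 14.9 ± 2.21 TPM at 0 h. LSF1, a scaffold of the same family without phosphatase activity, had 18.8 ± 1.19 TPM at 12 h and 16.3 ± 0.66 TPM at 0 h and did not pass on both scalings.

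Debranching was led by ISA3, which had 49.8, 54.0 and 50.2 TPM at 12 h, against 3.3, 2.89 and 3.25 TPM at 0 h (log2 difference 3.66 ± 0.09, adjusted p = 1.37e-21), the largest rise of the list. The limit dextrinase LDA rose by 1.01. BAM3, the main plastid beta-amylase, was the most abundant member, with 719, 748 and 767 TPM at 12 h, against 197, 188 and 178 TPM at 0 h (log2 difference 1.98 ± 0.06, adjusted p = 6.13e-19). BAM5 and BAM6 rose by 1.07 and 1.09, and AMY3, an alpha-amylase, by 0.90. BAM4, a regulator without catalytic activity, had 10.2 ± 0.92 TPM at 12 h and 8.30 ± 0.096 TPM at 0 h and did not pass on both scalings. A member that fell was BAM9, also without known activity, with 17.0, 18.6 and 17.1 TPM at 12 h, against 52.1, 57.8 and 51.6 TPM at 0 h. BAM1 also fell, with 35.5 ± 0.45 TPM at 12 h and 46.7 ± 1.08 TPM at 0 h, and the glucose transporter PGLCT with 88.2 ± 6.33 TPM at 12 h and 107 ± 3.86 TPM at 0 h. Downstream steps rose. DPE1, the plastid disproportionating enzyme, had 32.0, 31.2 and 29.9 TPM at 12 h, against 5.37, 5.17 and 4.12 TPM at 0 h. PHS2, the cytosolic phosphorylase, had 153, 154 and 159.8 TPM at 12 h, against 26.6, 26.1 and 25.9 TPM at 0 h. DPE2, PHS1 and the maltose exporter MEX1 rose by 0.94, 1.01 and 0.85. The list summed to 1729 ± 21.2 TPM (SD, n = 3) at 12 h and 674 ± 16.1 TPM (SD, n = 3) at 0 h. Its course was not uniform, since GWD1 had 18.1, 27.7, 94.3, 66.7 and 21.6 TPM and BAM3 188, 141, 207, 744 and 158 TPM over 0, 1, 3, 12 and 24 h.

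Starch synthesis was split by enzyme. Of 17 genes, all tested, 7 rose and 4 fell. GBSS1, the granule-bound synthase that makes amylose, had 10.1, 10.3 and 10.5 TPM at 12 h, against 130.1, 115 and 109 TPM at 0 h (log2 difference -3.39 ± 0.14, adjusted p = 1.82e-16), the largest fall in the list. SBE2.1, a branching enzyme, had 60.0, 61.3 and 55.6 TPM at 12 h, against 12.2, 11.9 and 10.5 TPM at 0 h (log2 difference 2.26 ± 0.08, adjusted p = 2.69e-18). The synthase SS4, which starts granules, had 53.1, 53.0 and 53.6 TPM at 12 h, against 16.6, 15.6 and 15.02 TPM at 0 h. SS2 fell with 27.3 ± 0.95 TPM at 12 h and 51.6 ± 2.39 TPM at 0 h. ADG1, the small subunit of ADP-glucose pyrophosphorylase, had 304 ± 1.74 TPM at 12 h and 317 ± 13.0 TPM at 0 h and did not pass on both scalings. Of 10 genes in the list of sucrose synthesis and export, 5 rose and 1 fell. This list also holds the sucrose synthases SUS1 and SUS3 and a hexose carrier. SUS1, a sucrose synthase, had 40.6 ± 0.53 TPM at 12 h and 9.26 ± 0.11 TPM at 0 h. SWEET12, a sucrose exporter, had 127 ± 8.12 TPM at 12 h and 32.1 ± 1.70 TPM at 0 h, and SPS1F, a sucrose phosphate synthase, 81.9 ± 2.46 TPM at 12 h and 32.8 ± 0.94 TPM at 0 h. The 1 that fell was STP1, a hexose carrier, with 27.1 ± 0.92 TPM at 12 h and 31.6 ± 3.41 TPM at 0 h. Its call was lost without mock 12 h replicate 2 and without mock 0 h replicate 2 (adjusted p = 0.0869 and 0.18).

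Genes listed here as raised by low sugar fell more often than they rose: of 16, 15 were tested, 10 fell and 4 rose. The 4 that rose were BT2, DRM1, BCAT2 and TPS5, and the response of each member to sugar was not tested. BXL1, a beta-xylosidase, had 7.89 ± 0.43 TPM at 12 h and 45.0 ± 4.11 TPM at 0 h, and SEN1 2.63 ± 0.31 TPM at 12 h and 16.7 ± 3.27 TPM at 0 h. The trehalose phosphate synthase-like genes TPS11 and TPS8 had 3.69 ± 0.18 TPM at 12 h and 18.7 ± 2.94 TPM at 0 h and 17.39 ± 0.85 TPM at 12 h and 63.0 ± 2.04 TPM at 0 h. Against them BT2, a BTB scaffold protein, had 29.8, 38.4 and 31.6 TPM at 12 h, against 1.13, 1.59 and 1.52 TPM at 0 h (log2 difference 3.82 ± 0.11, adjusted p = 8.6e-20). DRM1, a dormancy-associated gene, had 103 ± 3.63 TPM at 12 h and 14.8 ± 0.75 TPM at 0 h. Of 11 nitrate assimilation genes 4 rose and 3 fell, beside 21.9% and 10.6% of all genes. NIR1, nitrite reductase, had 155 ± 8.09 TPM at 12 h and 82.1 ± 6.02 TPM at 0 h, and NIA1, a nitrate reductase, had 20.8 ± 1.57 TPM at 12 h and 37.2 ± 1.25 TPM at 0 h. Of 9 sulfate assimilation genes 4 fell and 1 rose, among them APR2, an APS reductase, with 106 ± 5.77 TPM at 12 h and 207 ± 5.22 TPM at 0 h.

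**Figure D3:**
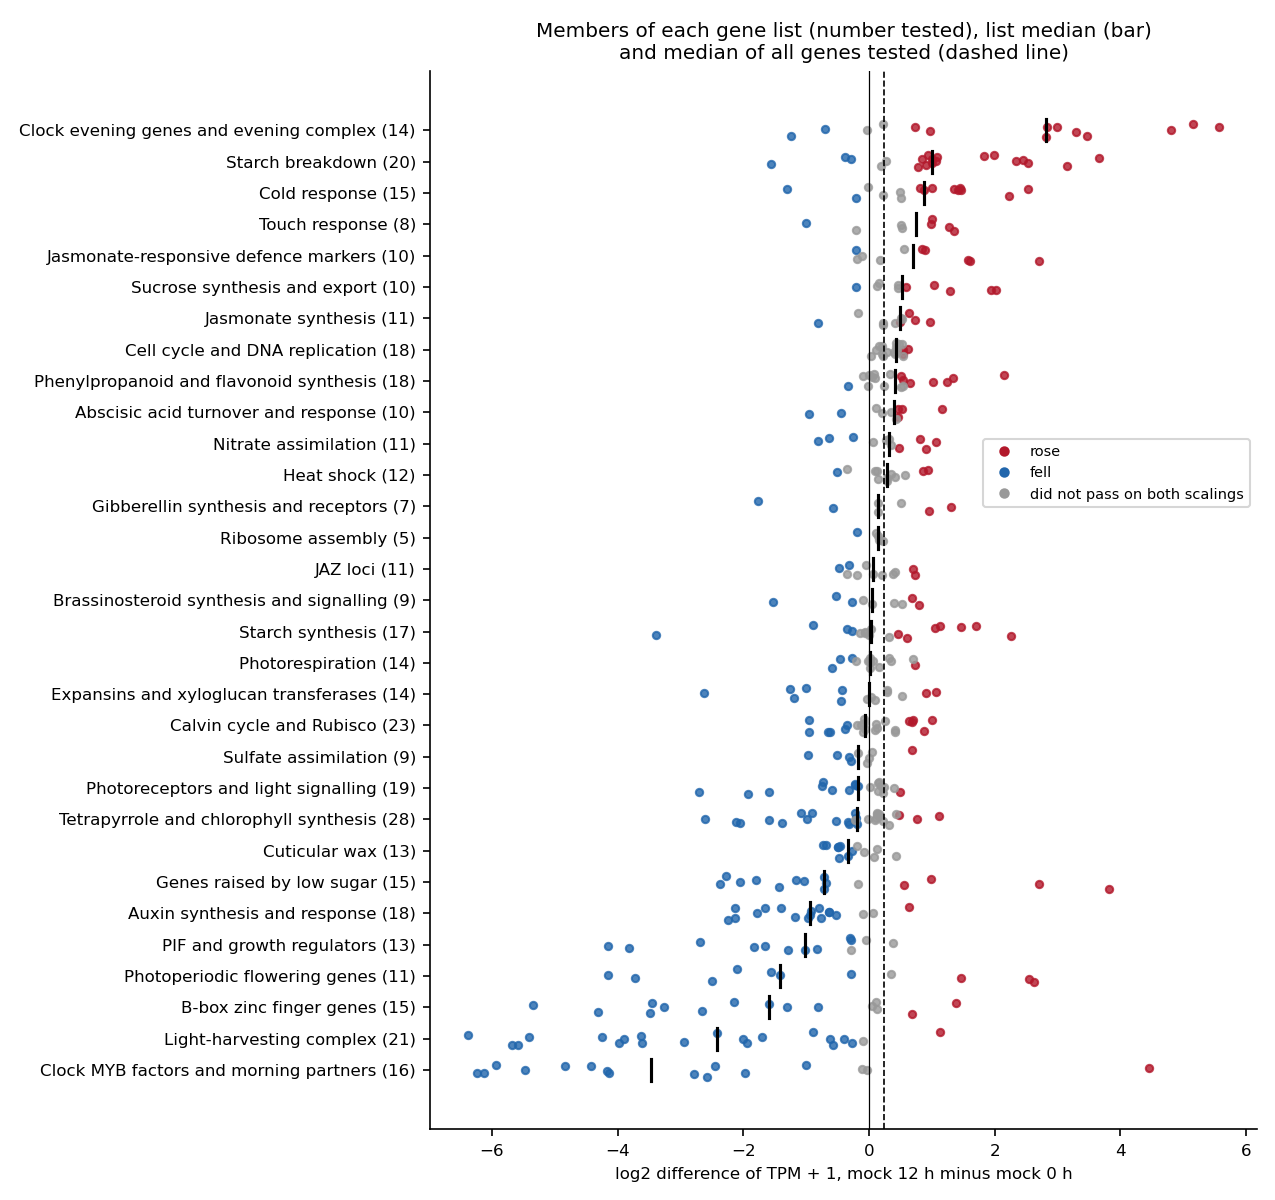
Log2 difference of TPM + 1, mock 12 h minus mock 0 h (horizontal axis), for every tested member of each list (rows, with the number tested), coloured by whether it rose, fell or did not pass on both scalings; bars are list medians and the dashed line is the median of all genes tested, 0.24. The clock evening genes have the highest median, 2.82, and the clock MYB factors and morning partners the lowest, -3.46.

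Outside the lists above, the rule for the largest changes adds a few genes. It took called genes with a symbol, at least 10 TPM in the higher group and no overlap between the groups. COR27, a cold-regulated repressor that also acts on clock genes, had 16.0, 17.5 and 16.6 TPM at 12 h, against 0.12, 0.09 and 0.24 TPM at 0 h (log2 difference 3.94 ± 0.13, adjusted p = 1.74e-18). RIBA2, an enzyme of riboflavin synthesis, had 21.4, 19.5 and 20.8 TPM at 12 h, against 0.89, 1.06 and 0.96 TPM at 0 h. TAG1, the diacylglycerol acyltransferase of storage oil synthesis, had 20.1, 19.01 and 20.6 TPM at 12 h, against 1.13, 1.14 and 1.05 TPM at 0 h. Both were under 2 TPM in every 0 h library. CIPK20, a kinase of calcium signalling, had 0.03, 0.03 and 0.00 TPM at 12 h, against 28.7, 30.4 and 28.4 TPM at 0 h, so it was all but off at 12 h (log2 difference -4.88 ± 0.06, adjusted p = 8.49e-27). None of the 24 genes, picked for the largest called changes, lost its call or turned round under any of the 21 other settings tried.

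**Figure D4:**
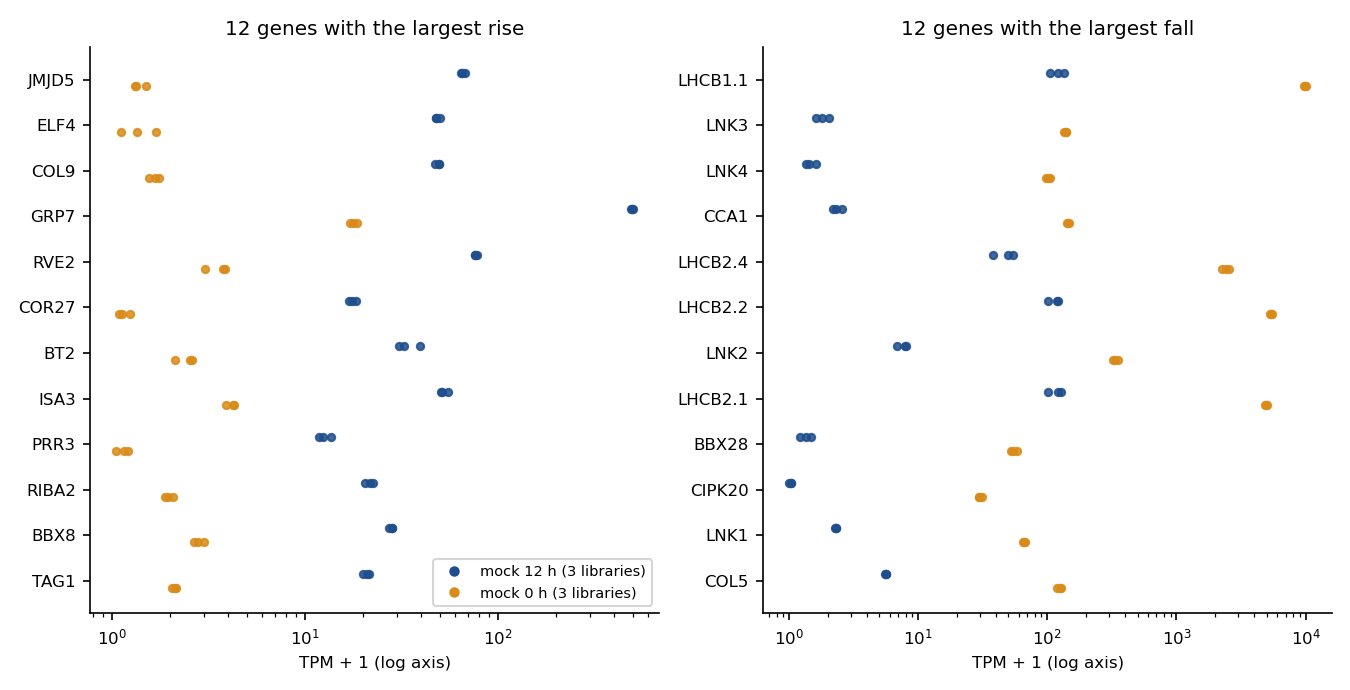
TPM + 1 on a log axis for the 12 genes with the largest rise (left) and the 12 with the largest fall (right), with 3 mock 12 h libraries and 3 mock 0 h libraries as points. All 3 points of one time lie beyond all 3 of the other in every gene shown, because the rule for choosing them required it.

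Genes of the cold and touch responses rose more often than they fell, as did all genes tested, of which 21.9% rose and 10.6% fell. ZAT10, ZAT12 and CZF1 are members of both lists. Of 18 cold-response genes 15 were tested, 9 rose and 2 fell; the CBF1, CBF2 and CBF3 factors were below the filter. COR15B, a chloroplast protein that protects membranes in the cold, had 30.3, 32.7 and 26.5 TPM at 12 h, against 5.22, 3.37 and 4.44 TPM at 0 h. ERD7 had 52.8 ± 6.12 TPM at 12 h and 10.4 ± 0.55 TPM at 0 h, KIN2 297 ± 36.4 TPM at 12 h and 108 ± 21.3 TPM at 0 h and COR15A 80.1 ± 20.6 TPM at 12 h and 28.7 ± 8.48 TPM at 0 h. The number that fell was 1 without mock 12 h replicate 1, mock 12 h replicate 2, mock 0 h replicate 2 or mock 0 h replicate 3. Of 8 touch-response genes 4 rose and 1 fell: CZF1, a zinc finger factor, had 29.3 ± 0.77 TPM at 12 h and 11.0 ± 2.56 TPM at 0 h, and XTH22 7.83 ± 0.61 TPM at 12 h and 16.7 ± 2.58 TPM at 0 h. Without mock 12 h replicate 1 the number that fell was 2. Of 18 tested flavonoid genes 7 rose and 1 fell. MYB111, an activator of flavonol synthesis, had 9.71 ± 1.26 TPM at 12 h and 1.42 ± 0.24 TPM at 0 h and TT7, flavonoid 3′-hydroxylase, 48.2 ± 3.21 TPM at 12 h and 18.6 ± 3.24 TPM at 0 h. CHS, the first enzyme of the branch, had 728 ± 23.64 TPM at 12 h and 686 ± 60.7 TPM at 0 h and did not pass. Of 13 tested wax genes 8 fell and none rose, among them KCS1, which elongates fatty acids, with 66.5 ± 4.45 TPM at 12 h and 110.5 ± 3.09 TPM at 0 h.

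In the lists below, counts changed when single libraries were left out, and the share called over all genes was 32.4%. Of 10 tested abscisic acid genes 4 rose and 2 fell, with ABI1, a phosphatase that restrains the hormone's signalling, at 39.0 ± 0.032 TPM at 12 h and 16.9 ± 0.79 TPM at 0 h. Of these, 2 rose without mock 12 h replicate 1 or 2, 1 rose without mock 0 h replicate 2, and 1 fell without mock 12 h replicate 2 or mock 0 h replicate 2. Of 18 cell cycle and replication genes 3 rose and none fell, 1 rose without mock 12 h replicate 3 and none without mock 0 h replicate 3. Of 12 tested heat shock genes 2 rose and 1 fell, and without mock 12 h replicate 2 none fell. DREB2A, a drought and heat factor, had 3.1 ± 0.54 TPM at 12 h and 1.13 ± 0.23 TPM at 0 h. Of 5 ribosome assembly genes none rose and 1 fell, and without mock 12 h replicate 1 none fell. Of 11 jasmonate synthesis genes 4 rose and 1 fell, with AOC4, an allene oxide cyclase, at 113 ± 3.85 TPM at 12 h and 67.5 ± 1.93 TPM at 0 h. In that list 2 rose without mock 12 h replicate 2 or 3 or mock 0 h replicate 1 or 2, and 2 fell without mock 12 h replicate 2. LOX2, the lipoxygenase that starts the pathway, had 4399 ± 493 TPM at 12 h and 3759 ± 269.5 TPM at 0 h and did not pass on both scalings.

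Since jazD lacks several JAZ repressors, the jasmonate genes are given on their own. Reads from a mutant allele can still be counted for its gene, so these levels do not check the genotype. The labels do not name the mutated loci, so the counts below do not separate mutated from intact JAZ genes. Of 13 JAZ loci 11 were tested, 2 rose and 2 fell. JAZ10 had 37.5, 40.3 and 41.8 TPM at 12 h, against 20.9, 22.8 and 27.7 TPM at 0 h. JAZ2 had 5.30, 4.39 and 4.37 TPM at 12 h, against 1.98, 3.02 and 2.54 TPM at 0 h, and both rose. JAZ9, the most abundant, had 146, 174 and 174 TPM at 12 h, against 231, 216 and 235 TPM at 0 h, and fell, as did JAZ3 with 27.1 ± 3.08 TPM at 12 h and 33.8 ± 3.45 TPM at 0 h. The adjusted p of JAZ3 was 0.0503 without mock 12 h replicate 3 and 0.0516 without mock 0 h replicate 3. With the coronatine 0 h leaves in place of the mock 0 h leaves neither JAZ3 nor JAZ9 was called. The rest did not pass on both scalings. JAZ12 had 113 ± 2.53 TPM at 12 h and 108 ± 3.44 TPM at 0 h, JAZ8 18.8 ± 2.28 TPM at 12 h and 24.3 ± 2.35 TPM at 0 h and JAZ11 14.4 ± 1.26 TPM at 12 h and 10.8 ± 0.91 TPM at 0 h. The lower ones were JAZ5 with 8.31 ± 0.42 TPM at 12 h and 7.09 ± 0.58 TPM at 0 h, JAZ13 with 5.92 ± 0.49 TPM at 12 h and 7.04 ± 2.03 TPM at 0 h, JAZ6 with 4.66 ± 0.27 TPM at 12 h and 4.85 ± 0.22 TPM at 0 h and JAZ1 with 4.54 ± 0.35 TPM at 12 h and 3.16 ± 0.37 TPM at 0 h. JAZ4 and JAZ7 were below the filter. Of 10 jasmonate-responsive defence genes 5 rose and 1 fell. TAT3, a tyrosine aminotransferase, had 209 ± 39.6 TPM at 12 h and 71.9 ± 24.1 TPM at 0 h. TPS04, which makes a volatile terpene, had 82.7 ± 20.2 TPM at 12 h and 26.2 ± 5.33 TPM at 0 h, and BSMT1, a salicylate methyltransferase, 46.4 ± 23.3 TPM at 12 h and 5.65 ± 0.57 TPM at 0 h. PDF1.2, a defensin, had 18538 ± 3221 TPM at 12 h and 12578 ± 1746 TPM at 0 h and VSP2, a storage protein, 860.4 ± 236 TPM at 12 h and 962 ± 177 TPM at 0 h; neither passed on both scalings.

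The 12 h libraries were compared with 0 h alone, but the 24 h mock libraries give the same genes a full day on. Both comparisons use the same 0 h libraries, so their values are set side by side and no agreement is read from them. At 24 h 36 genes rose (0.202%) and 24 fell (0.135%), or 0.337% of those tested, and 1529 genes had an unadjusted p under 0.05. Deposited TPM alone called 62 higher and 28 lower, and rescaled TPM alone 36 higher and 26 lower. These counts rested on single libraries: 5 rose and 4 fell without mock 24 h replicate 2, and 15 rose without mock 24 h replicate 3. Likewise 23 rose without mock 0 h replicate 1, 11 rose and 11 fell without mock 0 h replicate 2, and 10 rose and 7 fell without mock 0 h replicate 3. None of the members of the 2 clock lists, the photoperiod list, the starch breakdown list or the light-harvesting list was called at 24 h. CCA1 differed from 0 h by -0.04 on the log2 scale at 24 h and by -5.94 at 12 h, and TOC1 by 0.09 at 24 h and 2.99 at 12 h. LHCB2.2 differed by 0.06 at 24 h and -5.58 at 12 h, and ISA3 by 0.22 at 24 h and 3.66 at 12 h. The list members called at 24 h were few. COR15B (0.97), ERF6 (0.69), a factor of the touch list, and TPS5 (0.46) rose, and ATPS3 (-0.32), an ATP sulfurylase, fell.

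In the 250 bases before the start, 8 short motifs were searched on both strands. The evening element AAAATATCT was in 7.64% of 772 promoters of genes that rose by at least 1 on the log2 scale (exact 95% interval 5.87 to 9.75%), in 2.95% of 441 promoters of genes that fell by as much (1.58 to 4.99%), in 2.60% of 17713 tested genes and in 2.22% of all 33054 nuclear genes. These intervals cover counting error only, and neighbouring or duplicated genes are not independent. Its core AATATCT, which overlaps the full element, was in 20.7% of the promoters of risers, 8.84% of those of fallers and 10.2% of those tested. For the G-box CACGTG the shares were 10.5% of risers, 14.7% of fallers and 7.46% of genes tested. The CCA1 binding site AAAAATCT was in 8.03%, 8.16% and 6.81% of these sets. The I-box GATAAG had 14.1%, 18.4% and 12.5%, and the hormone up at dawn motif CACATG 11.5%, 17.5% and 11.0%, in the same order of sets. The site II motif TGGGCC had 9.72%, 7.26% and 17.3%, and the telo-box AAACCCTA 2.33%, 1.13% and 3.59%. No test was made of these shares.

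**Figure D5:**
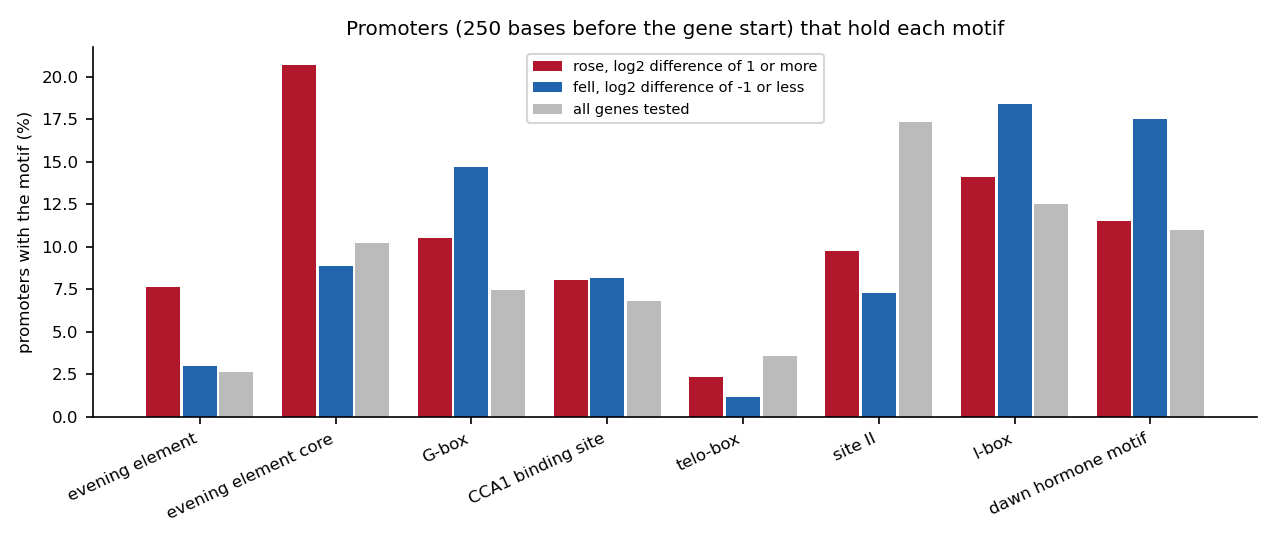
Percentage of promoters (vertical axis, from 0) with each of 8 motifs within 250 bases before the start, for genes that rose by a log2 difference of 1 or more, genes that fell by as much and all genes tested. The evening element stood at 7.64% in the first set and 2.95% in the second, and the G-box at 10.5% and 14.7%.

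By gene, the full evening element lay in 6 of the 14 evening-limb promoters (PRR5, TOC1, LUX, BOA, GRP7 and GRP8) and in 1 of the 16 morning-limb promoters, that of RVE7, which fell. It was in 4 of the 12 genes with the largest rise, GRP7, ISA3 and BBX8 among them, and in 0 of the 12 with the largest fall. JMJD5 and ELF4, the largest rises among genes with a symbol, lack the full element in these 250 bases, and ELF4 holds its core there. In the starch breakdown list ISA3 and PWD hold it, and these had the largest rises of that list. The G-box lay in 9 of the 16 morning-limb promoters, among them CCA1, LHY, LNK3, PRR9 and PRR7 that fell and RVE2 that rose, and in 2 of the 14 evening-limb promoters. A match of letters is a description and not a binding site.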

How the data were processed

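Leaf RNA of 30 jazD samples was analysed, with groups taken from the sample titles. This comparison uses the 3 mock libraries at 12 h and the 3 at 0 h. The authors deposited TPM per gene for 27655 genes; each column sums to between 999999 and 1000001. RSEM 1.3.3, DESeq2 3.12 and the build TAIR10 are named, with no role, in the submitters' processing notes. How strand was handled is not given in the sources used here. Because TPM keeps no depth, no counting interval was given for levels. RNA integrity scores were 6.5 or more, per the labels' protocols.

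Genes with at least 1 TPM in at least 3 of the 6 libraries were tested with limma 3.58.1 in R 4.3.3 on log2(TPM + 1), which understates changes of low genes, with 1 mean per treatment and time (10 groups, 30 libraries), a mean-variance trend, two-sided tests, Benjamini-Hochberg adjustment over 17817 genes and a threshold of 0.05. Adjusted p-values printed are those on TPM as deposited. Calls had to hold also on TPM rescaled with TMM factors (log ratios trimmed by 30% and mean log values by 5%; 1.30 to 1.35 at 12 h, 1.08 to 1.11 at 0 h). In simulated data with the same 17817 genes, changes were placed in 50 genes per size, none of them low at 0 h. All other genes were left unchanged between 12 h and 0 h. There the fit recovered 90% of changes of 0.5 on the log2 scale and 98% of changes of 1, and 6.28% of its calls were false. Changes of low genes and a broad change such as that seen here were not simulated, so these rates may not hold for them.

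The comparison, 31 gene lists and 9 marker lists (497 loci, 454 tested) were chosen with earlier results of these data known. Named were the 12 largest rises and 12 largest falls with a symbol, at least 10 TPM in the higher group and no overlap, all members of the clock, photoperiod, starch breakdown and JAZ lists, and from other lists up to 4 rises, 4 falls and 2 others. Symbols came from RefSeq, which matched 27445 loci. Promoters and motifs were read from RefSeq TAIR10.1; of 27996 nuclear loci, 100% overlapped on the same strand with the TAIR10 coordinates the authors deposited and 47.5% shared an end. Alternatives covered pseudocounts, filters, scalings, fits, the 0 h set and each library left out.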

Additional observations from a re-analysis of the deposited data

How the results depend on the processing

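Both counts at 12 h depended on the scaling: deposited TPM alone gave 9536 genes that rose, and 3984 fell on rescaled TPM alone and 3970 under quantile normalization. Under the other settings, between 3347 and 4603 genes rose and between 1608 and 2111 fell; with the coronatine 0 h libraries in place of the mock 0 h libraries, 3307 of the 3895 and 1738 of the 1884 genes were called again. Leaving out a library gave 3386 to 3629 that rose and 1694 to 1808 that fell. At 24 h deposited TPM alone gave 62 genes that rose, and leaving out a library gave 5 to 32 that rose and 4 to 24 that fell. In the last 100 bases the evening element was in 4.66% of promoters of genes that rose by 1 or more, 1.13% of those that fell by as much and 1.09% of those tested. Under quantile normalization LHCB4.1 (0.0195), LHCA2 (0.0112) and CLH1 (0.17) changed sign; the cause was not tested. Replicate numbers did not pair the samples (correlations of same-numbered libraries -0.05, -0.03 and 0.01, and no library correlated best with its own number); with the replicate block 4014 genes rose and 1965 fell, against 4207 and 1985 in the same 6 libraries without it. TPM gives no depth, so small differences of low genes cannot be weighed.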

Other observations

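Gene groups taken from words in the deposited gene descriptions, chosen after the values were seen, add some values. Of 44 loci annotated as photosystem subunits, all tested, 30 fell and none rose at 12 h, beside 10.6% of all genes that fell. This group holds light-harvesting genes already counted above, LHCB2.4 among them, so it is not a separate set. Of 46 tested SAUR-like loci 28 fell and 7 rose. Among 41 tested proteasome subunits 17 rose and none fell, beside 21.9% of all genes that rose, and among 447 tested pentatricopeptide or tetratricopeptide repeat proteins 141 rose and 24 fell. Of 313 tested nuclear loci annotated as ribosomal proteins 28 rose and 7 fell. Of 66 tested plastid-encoded loci none rose and 2 fell.

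A set of 18 genes changed between being nearly absent and clearly present. Under 1 TPM in every 12 h library and at least 10 TPM in every 0 h library were 8 genes. PRR9, LNK4, BBX28, BBX30 and CIPK20 were among them. The reverse held for 10 genes, among them ELF4, JMJD5, BOA, PRR3, COL9 and COR27. AT5G23240, which had no symbol in the RefSeq table, had 171, 179.6 and 179 TPM at 12 h, against a mean of 0.63 ± 0.12 TPM at 0 h (SD, n = 3).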
